A study of Oryza sativa with 4 samples.

Results

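The genes described here are 4 rice genes numbered closely together on chromosome 10 and grouped as beta-expansins: Os10g0555600, Os10g0555700, Os10g0555900 and Os10g0556100. Only Os10g0555700 is annotated as an expansin in the study's list, and for the other 3 the name beta-expansin rests on this grouping alone. They were chosen as named members of 1 wall-loosening family, and they were found on the array by the RAP gene identifier at the start of each probe name. The list held 5 genes. Os06g0108600, given there as the root hair alpha-expansin A17, had no matching probe name, was left out and was not analysed here. The other 4 genes were represented by 18 probes of 42477 on the array, or 4 genes of 29864, with 1 spot per probe. Os10g0555600 had 5 probes, Os10g0555700 had 4, Os10g0555900 had 3 and Os10g0556100 had 6. The probe names place all 18 in the coding sequence and 3′ untranslated region, over 7 transcript models.

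Root hairs were brushed from frozen seminal roots of rice seedlings 3 days after germination, and their RNA was labelled with Cy3 and hybridised to 4 one-colour Agilent arrays. Replicates 1, 2 and 3 are labelled as the cultivar Don-gin and the remaining array as Lon-gin, whereas the methods of the study name Dongjin for all 4 biological replicates. The name Lon-gin-labelled array is therefore used for the last one. No treatment was applied. The series holds no other tissue, so nothing here measures preference for root hairs, and a purified tissue can retain other root cells.

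Expansins are secreted proteins that loosen the plant cell wall without cutting its polymers, by weakening the contacts between cellulose and the matrix around it. The family has an alpha branch and a beta branch. Beta-expansins are especially numerous in grasses, and they include the pollen allergens by which the branch was first recognised. A root hair grows at its tip, where new wall has to yield while the shank behind it stays firm, and expansins of both branches have been linked to root hair growth in grasses.

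Levels are log2 processed signals, scaled so that the 75th percentile of each array is the same. They compare arrays for 1 probe and do not rank genes, since probes differ in how strongly they bind. Slide 1 (scan 1) held replicates 1 and 2, and slide 2 (scan 2) held the other pair of arrays. Slide 2 was brighter, with an unscaled 75th percentile of 11.49 and 11.80 against 10.59 and 10.73. By the scanner software's own call, between 71.5% and 74.1% of probes were well above background on the arrays of slide 1 and between 85.4% and 88.6% on those of slide 2. Differences between 2 arrays had an SD, across the 29688 probes detected on all 4, of 0.608 within slide 1, 0.820 within slide 2 and 0.849 to 1.06 across slides. In what follows a probe is called detected on an array where its spot was well above background there. OsCSLD1 (Os10g0578200), a cellulose synthase-like gene needed for root hair elongation, had 14.22, 14.03, 14.90 and 14.44. Each array of 1 slide differs from those of the other in sample as well as slide, and the effects of slide, scan and sample cannot be told apart.

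Of the 18 probes, 13 were detected on all 4 arrays, against 69.9% of all probes, and all 18 were detected on both arrays of slide 2. A gene counted as detected when at least 1 of its probes was found on all arrays. By that rule all 4 genes were detected, against 67.7% of all genes on the array. A gene with more probes meets the rule more easily, and the members had 3 to 6 probes each. The share among genes with as many probes was not counted. The study filtered genes at log2 values over 8 in its own normalization, and the same number is used here on another scale. The mean over probes and arrays was above 8 for 3 of the 4 genes, against 44.4% of all genes. By probe it was above 8 for 13 of the 18, against 49.4% of all probes. The exception among the genes was Os10g0556100. Among the 13 probes detected on all arrays, 2 differed by more than 4-fold between the highest and lowest array, against 11.8% of all such probes. No member spot was saturated or marked as an outlier by the scanner software.

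**Figure D1:**
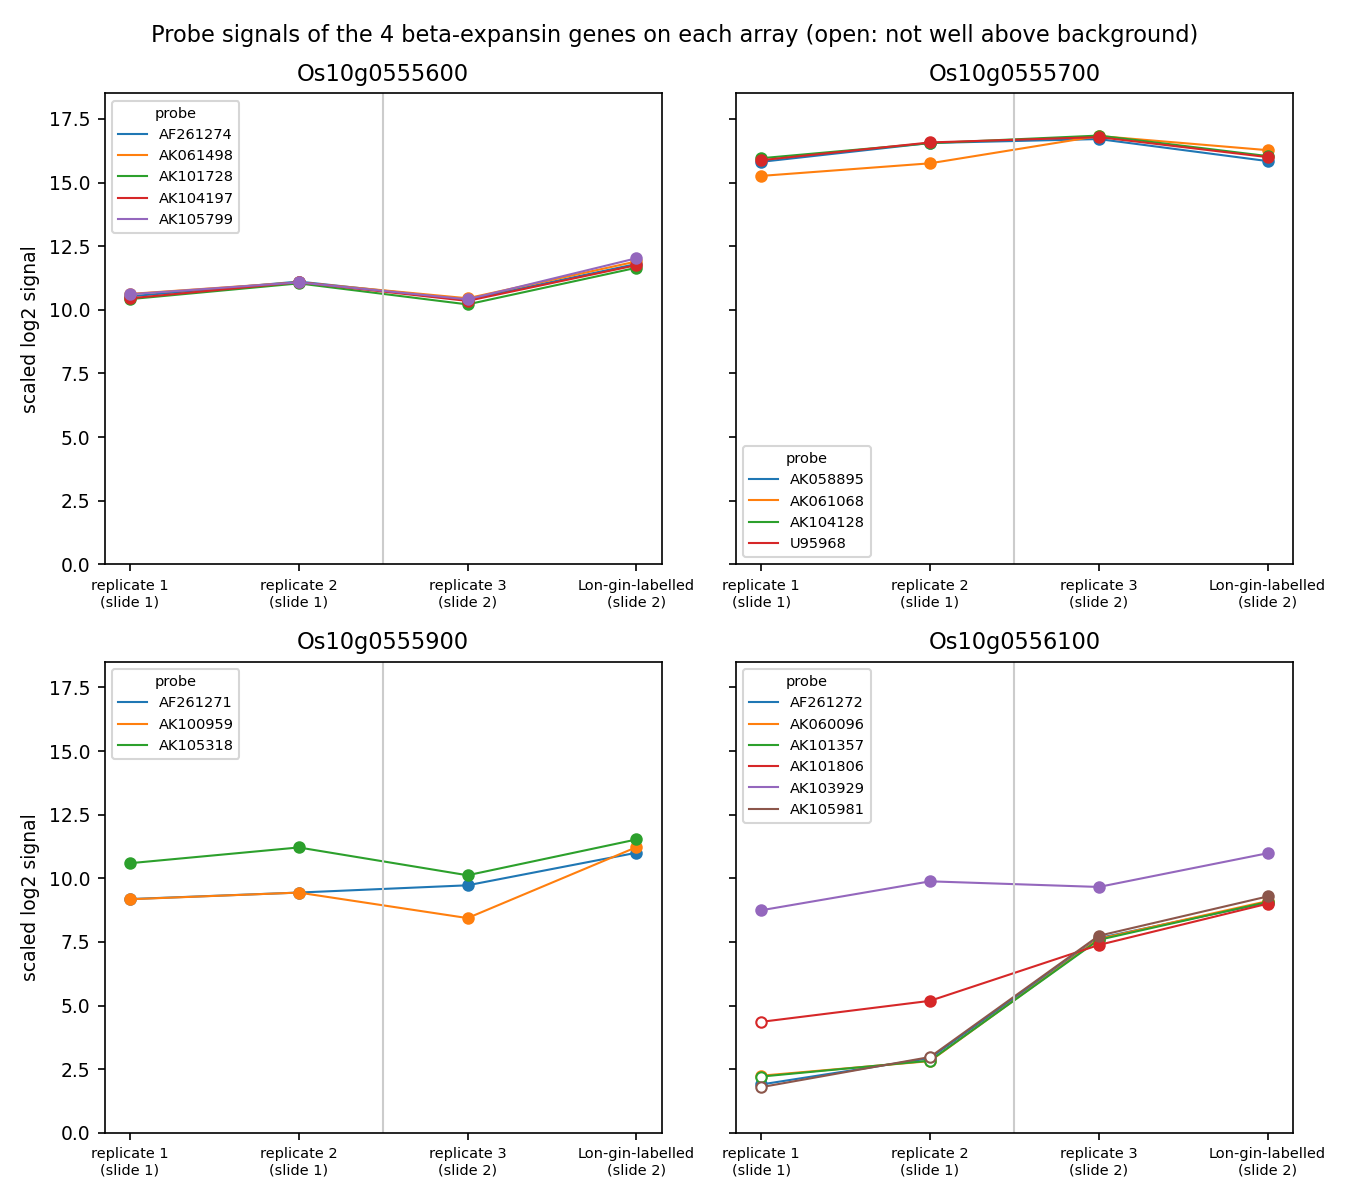
Scaled log2 signal (y axis) of each probe on each array (x axis), 1 panel per gene, with open points where the spot was not well above background and the grey line between slide 1 and slide 2. The 5 probes of Os10g0555600 lie on top of each other, 1 probe of Os10g0555700 departs from the other 3 on slide 1, and 5 probes of Os10g0556100 are low on slide 1 while the sixth is not.

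Os10g0555700 was the one member listed by the study among its root hair-preferential genes, under the locus LOC_Os10g40710. It is annotated there as a precursor of the expansin family related to the grass pollen allergen Lol pI. The study searched only the promoters of its listed genes, so the other members were not covered. It listed a root hair element upstream of Os10g0555700, as it did for many of those genes. Such elements are short promoter sequences associated with expression in root hair cells of several plants. The listed copy is shown because it is the only regulatory sequence among the members for which a source was at hand, with the 4 bases CACG in capitals, a run within the element that is nearly invariant between species. It is 17 bases long and is listed for the chromosome 10 locus LOC_Os10g40710. Its strand was not read here.
Os10g0555700 root hair element: atcgaggacctCACGaa

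The signal of Os10g0555700, averaged over its 4 probes, was 15.73 in replicate 1, 16.36 in replicate 2, 16.79 in replicate 3 and 16.04 in the Lon-gin-labelled array. The mean was 16.23 ± 0.455 (SD, n = 4 arrays). Replicate 3 was highest and replicate 1 lowest, and the slides overlapped. Unscaled, the probe AK058895 gave processed signals of 39012, 71818, 135154 and 92413 in the same order, and after scaling the range was 0.90 on the log2 scale, or 1.86-fold.

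Within the gene 3 probes, AK058895, AK104128 and U95968, moved together. AK104128 had 15.96, 16.55, 16.85 and 16.04, and the other pair lay within the range of 15.81 to 16.79 in replicates 1 to 3. The probe AK061068, the only one that names the second transcript model, had 15.26, 15.76, 16.83 and 16.27. Relative to the mean of the other 3 it was lower by 0.62 in replicate 1 and by 0.80 in replicate 2, level in replicate 3 (0.05) and higher by 0.31 in the Lon-gin-labelled array. The slides did not overlap in this difference, which averaged -0.71 on slide 1 and 0.18 on slide 2. AK061068 was singled out because it stood apart, and how many genes hold such a probe was not counted. For the signal of single probes detected on all arrays, slide 2 lay above slide 1 in 24.4% and below in 29.4%. A difference between probes of 1 array does not depend on any scaling of whole arrays, and the change between slides was 0.89 as scaled and between 0.89 and 1.01 under the 6 other ways of processing. The widest disagreement among the 4 probes, taken as the range over arrays of the difference between a pair, was 1.23. It was narrower in 88.7% of the 5987 genes with 2 or more such probes, whose median was 0.45, although more probes give more pairs and a wider range. In the 2116 genes with 3 or more such probes the median was 0.61.

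**Figure D2:**
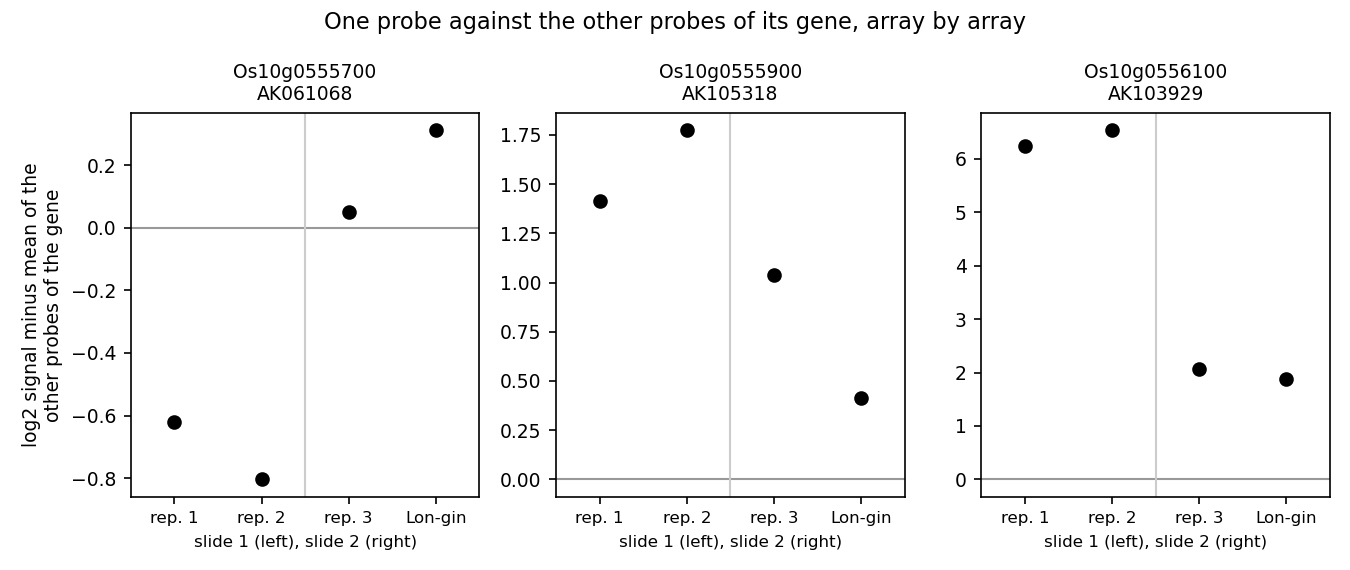
Log2 signal of 1 probe minus the mean of the other probes of its gene (y axis, scales differ between panels) on each array (x axis), for the probe of each gene that stands apart, with the grey vertical line between slide 1 and slide 2. AK061068 goes from -0.80 to 0.31, AK105318 from 1.77 to 0.41 and AK103929 from 6.53 to 1.88. For AK103929 the slide 1 values rest on other probes that were mostly not well above background there.

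Os10g0555600 had 10.53, 11.08, 10.36 and 11.83 in the order of replicates 1, 2 and 3 and the Lon-gin-labelled array. The mean over the 4 arrays was 10.95 ± 0.659 (SD, n = 4 arrays). The Lon-gin-labelled array was highest and replicate 3, its partner on slide 2, was lowest, so that the arrays of slide 1 lay between those of slide 2.

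This gene had the closest agreement among its probes, all of them assigned to 1 transcript model. In replicate 1 the 5 probes ran from 10.42 (AK101728) to 10.62 (AK061498), and in replicate 2 from 11.04 to 11.11. In replicate 3 they ran from 10.21 to 10.45 and in the Lon-gin-labelled array from 11.65 to 12.02. On every array the probes spanned less than the difference between the highest and lowest array, which was 1.46. The widest disagreement between a pair of probes was 0.33, and 36.9% of the genes with 2 or more such probes had a narrower one.

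Os10g0555900 had 9.65, 10.03, 9.43 and 11.25 in the same order, with a mean of 10.09 ± 0.812 (SD, n = 4 arrays). The order of arrays was that of Os10g0555600, with the Lon-gin-labelled array highest and replicate 3 lowest. The share of all genes with that order was not counted. The difference between the 2 genes on 1 array stayed close, at 0.88, 1.05, 0.94 and 0.58, a range of 0.47. For Os10g0555700 minus Os10g0555900 the same range was 2.58, and for Os10g0555600 minus Os10g0555700 it was 2.21. These ranges say how unequally the genes changed between arrays and nothing of their relative abundance.

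The 3 probes of Os10g0555900 did not follow each other. AF261271 had 9.18, 9.44, 9.72 and 11.00. AK100959 had 9.18, 9.44, 8.44 and 11.22. AK105318, the only probe of the first transcript model, had 10.59, 11.21, 10.12 and 11.52. The first 2 probes, both of the second transcript model, differed by 0.01 or less on slide 1, yet in replicate 3 AF261271 was higher by 1.29 and in the Lon-gin-labelled array lower by 0.22. AK105318 exceeded the mean of the other 2 by 1.41 and 1.77 on slide 1, by 1.04 in replicate 3 and by 0.41 in the Lon-gin-labelled array. The widest disagreement was 1.51, and 92.8% of genes with 2 or more such probes had a narrower one. A range over 1 was found in 16.9% of those genes, and in 2 of the 3 members with 2 or more such probes. The median widest disagreement was 0.61 in genes with 3 or more such probes.

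Os10g0556100 was the member whose values depended most on the probe. AK103929, the 1 probe of this gene detected on all arrays, had 8.74, 9.88, 9.66 and 10.98, with a mean of 9.82 ± 0.921 (SD, n = 4 arrays). The Lon-gin-labelled array was highest and replicate 1 lowest, with 4.73-fold between them. Replicates 2 and 3 lay between, and the slides overlapped.

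A group of 4 probes, AF261272, AK060096, AK101357 and AK105981, gave another picture, although they name the same transcript model as AK103929. AF261272 had 1.90, 2.93, 7.65 and 9.05, and its processed signal before scaling was 2.52, 5.69, 253 and 830. AK105981 had 1.79, 2.98, 7.74 and 9.29. The remaining pair lay between 2.21 and 2.83 on slide 1 and between 7.58 and 9.1 on slide 2. On slide 1 none of the 4 was well above background, and the error that the scanner software attached to the signal in replicate 1 was 99.6% to 100% of the signal. On slide 2 all 4 were well above background on both arrays. A sixth probe, AK101806, of the third transcript model, had 4.36, 5.19, 7.38 and 9.0 and was detected on every array but replicate 1.

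Because slide 1 gives only a bound for these 4 probes, the ratio of slide 2 to slide 1 was taken against the lowest signal among probes well above background on each array. It was at least 41.1-fold for AF261272, at least 41.5-fold for AK060096, at least 40.5-fold for AK101357 and at least 46.1-fold for AK105981. These folds hold against that floor and for the processed signal only, and a spot can miss the call above the floor, as AK101806 did at 4.36 in replicate 1. After the normexp background correction and quantile normalization the differences of these 4 probes were 1.73 to 2.08 on the log2 scale, and in the deposited log2 values they were 2.76 to 3.31. The pattern of no signal well above background on slide 1 and signal on both arrays of slide 2 was seen in 9.8% of all probes, against 0.0259% for the reverse. Of the 7970 genes with 2 or more probes, 5.91% held both a probe of this kind and a probe detected throughout, as Os10g0556100 did. More probes give more occasion for this, and Os10g0556100 had 6. The share of all probes well above background was also higher on slide 2, and its part in the result was not tested.

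AK103929 exceeded the mean of the other 5 probes of the gene by 6.24 in replicate 1 and 6.53 in replicate 2, and by 2.07 in replicate 3 and 1.88 in the Lon-gin-labelled array. On slide 1 these differences rest on probes of which none in replicate 1 and only AK101806 in replicate 2 was well above background. The change between slides was -4.41 in the processed signal but -1.18 in the deposited values and -1.01 after normexp and quantile normalization. The gene mean over 6 probes, 3.54, 4.44, 7.94 and 9.42, therefore mixes probes that differ in what they measured on slide 1. Whether any of these probes also binds RNA of the neighbouring copies was not tested, since probe sequences were not used here.

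Within slide 2, the signal of the Lon-gin-labelled array was set against that of replicate 3, a difference between 2 single arrays without a replicate check. All 14 probes of Os10g0555600, Os10g0555900 and Os10g0556100 were higher in the Lon-gin-labelled array, by 1.28 (AF261271) to 2.78 (AK100959), and all 14 exceeded 2-fold. Of all probes well above background on both arrays, 11.9% were higher by more than 2-fold and 3.85% lower, and 50.7% were higher by any amount. The 14 probes stand for 3 genes, and probes of 1 gene are not independent. All 4 probes of Os10g0555700 were lower, by 0.56 to 0.87, against 49.3% of all probes that were lower by any amount. By gene, the difference was 1.46 for Os10g0555600, 1.82 for Os10g0555900, 1.48 for Os10g0556100 and -0.75 for Os10g0555700, and each kept its direction under the 6 other ways of processing.

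**Figure D3:**
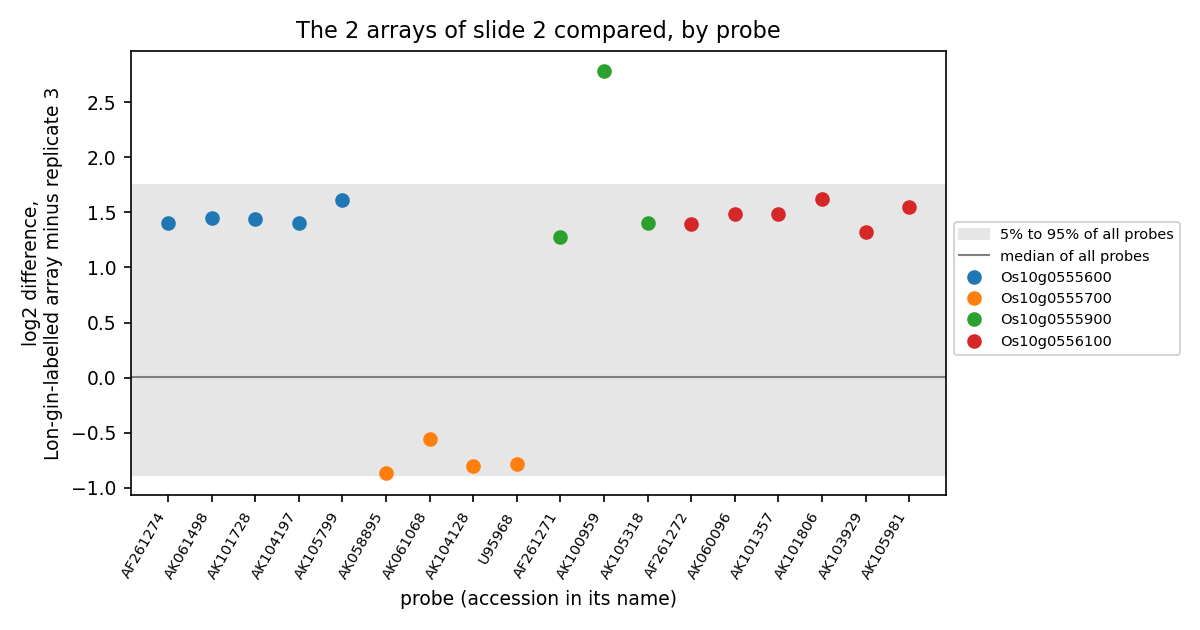
Log2 difference between the Lon-gin-labelled array and replicate 3 (y axis) for each of the 18 probes (x axis), coloured by gene, with the grey band from the 5th to the 95th percentile of all 35780 probes detected on both arrays, -0.88 to 1.75, and a line at their median of 0.01. The 14 probes of 3 genes lie above 1.27, with AK100959 outside the band, and the 4 probes of Os10g0555700 lie between -0.87 and -0.56.

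The array labelled Lon-gin was above all 3 Don-gin arrays for 9 of the 13 member probes detected throughout, and for 25.4% of all such probes. The other 4 were the probes of Os10g0555700. With limma and Benjamini-Hochberg adjustment over 37689 probes, 1 probe of the array was called higher (0.00265%) and 0 were called lower, while 3178 had an unadjusted p under 0.05. None of the 18 member probes was called, and their adjusted p ran from 0.367 to 0.924. Among the member probes detected on all arrays the largest difference was 2.20 (SE 0.56, limma adjusted p = 0.367) for AK100959, higher than each of the 3 Don-gin arrays. For Os10g0555600 the 5 probes gave 1.09 to 1.32, and for Os10g0555700 the gene mean gave -0.25, which turned to 0.47 with the deposited values and to 0.62 without scaling. With the slide as a block, AK100959 was called (2.78, limma adjusted p = 0.0151), as were 4.38% of all probes in the higher direction. Without replicate 3, which makes the fit the same as slide 2 against slide 1, 11.4% of all probes were called higher and so were 7 member probes. These were 2 of Os10g0555900 and 5 of Os10g0556100. The latter 5 entered the test only through the Lon-gin-labelled array and so had to differ. With the slide as a block, the difference is the Lon-gin-labelled array minus replicate 3, and the residual spread comes from replicates 1 and 2 only. A single Lon-gin-labelled array carries no spread of its own, and cultivar label and sample cannot be told apart.

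The arrays of slide 2 were also compared with those of slide 1, which differ in slide, scan and sample together. In limma over 35922 probes, 3.03% were called higher on slide 2 and 0.114% lower at a Benjamini-Hochberg adjusted p under 0.05. The member probes called were the 4 of Os10g0556100 that were dim on slide 1 (limma adjusted p = 0.0287 to 0.0333), with fitted differences of 5.80 to 6.13 that rest on slide 1 signals not well above background. They and AK101806 entered the test only through slide 2 and so had to differ. AK101806 gave 3.42 (SE 0.65, limma adjusted p = 0.0798), with an adjusted p of 0.0497 in the deposited values, where 8.6% of all probes were called higher. AK103929 of the same gene gave 1.01 (SE 0.63, limma adjusted p = 0.415). All 4 calls were lost with quantile normalization (5.48 to 6.23, limma adjusted p = 0.0540 to 0.0871), without replicate 1 (5.42 to 5.55) and without replicate 2 (6.12 to 6.72), where the differences stayed about as large. They were also lost with normexp and quantile normalization, where the differences were smaller (1.73 to 2.08, limma adjusted p = 0.141 to 0.147).

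Of the 13 member probes detected on all arrays, 2 had both arrays of slide 2 above both of slide 1, against 24.4% of all such probes, and 0 had them below, against 29.4%. These were AK061068 of Os10g0555700, with a difference of 1.04 (SE 0.35, limma adjusted p = 0.207), and AF261271 of Os10g0555900, with 1.05 (SE 0.50, limma adjusted p = 0.317). AK061068 was called with the deposited values (2.0, limma adjusted p = 0.0337) and without scaling (2.03, limma adjusted p = 0.0269), where 26.5% of all probes were called higher. Those values had medians of 7.59 on both arrays of slide 1 and 8.39 on both of slide 2, and without scaling the median of all probes tested shifted by 1.08. Within slide 1, replicate 2 was above replicate 1 on all 18 member probes, 5 of them dim in at least 1 of the arrays, where 45.7% of probes detected on all 4 arrays were higher. As a gene mean, Os10g0556100 had both arrays of slide 2 above both of slide 1, and the other 3 genes overlapped, against 26% of all detected genes above and 27.8% below.

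The genes with probes on either side of the group were read for the same arrays. They are the 10 genes with RAP identifiers from Os10g0555100 to Os10g0556900 that are not members. Os10g0555100, with 2 probes, had 11.51, 11.65, 11.64 and 11.49 and an SD of 0.0817, well under the SD of each expansin gene. Os10g0555200 had 5.57, 5.67, 5.39 and 6.28, and Os10g0556200 had 8.04, 8.11, 7.43 and 8.39. Both had replicate 3 lowest and the Lon-gin-labelled array highest, the order seen in Os10g0555600 and Os10g0555900. Among all probes detected on all arrays, the Lon-gin-labelled array was highest in 25.4%, and the share with replicate 3 also lowest was not counted. Os10g0555300 was well above background on some arrays only, with 4.32, 5.12, 6.72 and 6.59, so that slide 2 was above slide 1. Os10g0555400 and Os10g0556500 were well above background on no array. The other 4, Os10g0556600, Os10g0556700, Os10g0556800 and Os10g0556900, had means of 7.43, 5.94, 5.97 and 7.74 and SDs of 0.245 to 0.417. Of these, Os10g0556800 also had slide 2 above slide 1, with 5.55, 5.66, 6.34 and 6.31. Both arrays of slide 2 were above both of slide 1 in 26% of all detected genes. The SD ran from 0.0817 to 0.417 across the 7 neighbours detected on all arrays and was 1.16 for Os10g0555300. It ran from 0.455 to 0.812 across the 3 expansin genes with every probe detected, and was 0.921 for AK103929 of Os10g0556100. The SD of all detected genes was not summarised, so these values do not say whether the expansin genes varied more than usual.

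**Figure D4:**
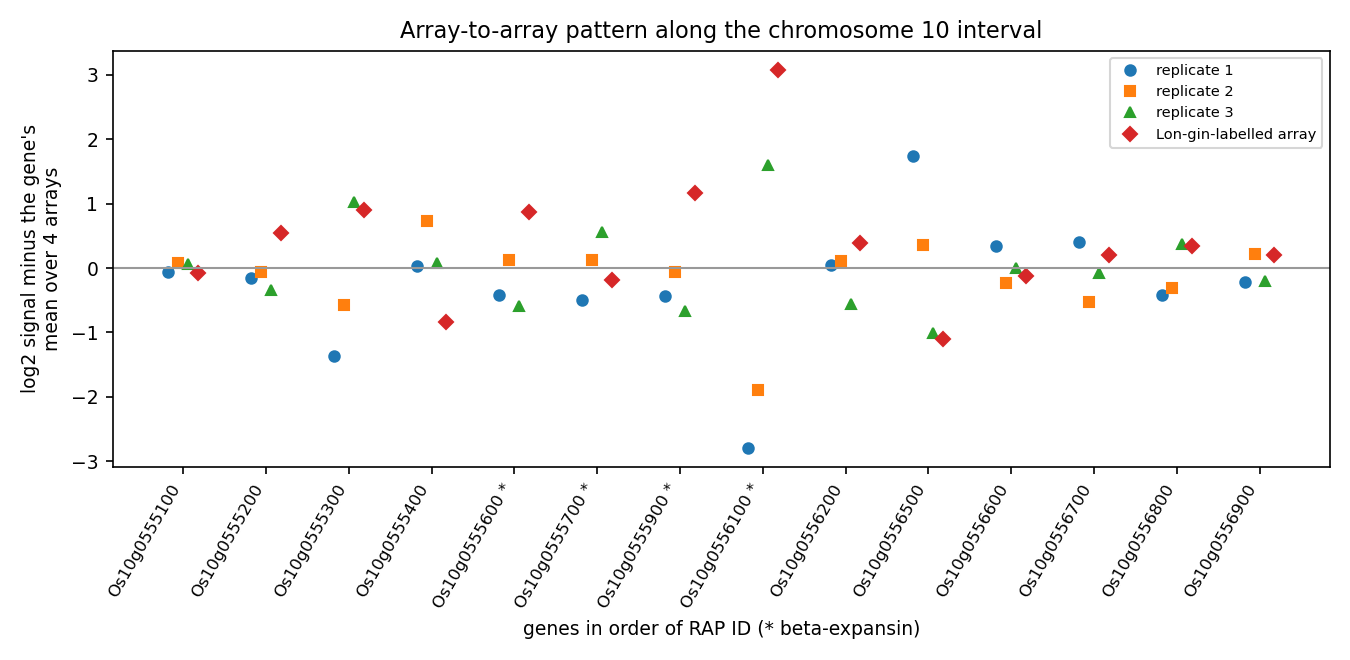
Log2 signal on each array minus the gene's mean over 4 arrays (y axis) for the 4 beta-expansin genes (starred) and their 10 neighbours in the order of RAP identifiers (x axis), with 1 marker shape per array. The expansin genes spread by 1.07 to 5.87 between arrays, the neighbours detected on all arrays by 0.15 to 0.96 and Os10g0555300 by 2.40. Os10g0555400 and Os10g0556500 were well above background on no array. The 5.87 is for the mean over all probes of Os10g0556100, most of them not well above background on slide 1. AK103929, its only probe detected on all arrays, spread by 2.24.

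Annotations were read only for the 409 genes that the study lists as root hair-preferential, chosen in part on these same arrays. Among these genes 1 other expansin was matched, Os05g0246300. It had 10.58, 10.93, 9.83 and 11.53, with a mean of 10.72 ± 0.712 (SD, n = 4 arrays). Replicate 3 was lowest and the Lon-gin-labelled array highest, as for Os10g0555600 and Os10g0555900, and the difference between those 2 arrays was 1.70. How common this order was among all genes was not counted. In the same list 1 gene was annotated as a xyloglucan endotransglucosylase/hydrolase, an enzyme that cuts and rejoins the xyloglucan tethers of the wall. This was Os02g0280300, with 16.78, 16.22, 16.52 and 16.18. Its highest array was replicate 1, which was lowest for Os10g0555700.

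The genes closest in pattern were those with the smallest distance over the 4 arrays after each gene's own mean was taken away, among 20213 other detected genes. With 4 arrays such closeness is common and is a description only. For Os10g0555600 they were Os03g0563300 (distance 0.0732) and Os11g0194800 (0.0850), with 33 genes within 0.2 and 452 within 0.5. Os10g0555900 stood at rank 177 from it, at a distance of 0.350. For Os10g0555700 they were Os10g0499400 (0.0344) and Os03g0141200 (0.0363), with 52 genes within 0.2, and the nearest other member, Os10g0555600, stood at rank 17398, at a distance of 1.57. For Os10g0555900 they were Os10g0320100 (0.0659) and Os03g0799700 (0.0773), with 15 genes within 0.2. No gene lay within 0.5 of Os10g0556100. Its nearest were Os04g0401000 (0.852), with 5.51, 6.19, 10.37 and 10.66, and Os01g0253900 (0.945). The pattern of Os10g0556100 is the mean over its 6 probes, of which only AK103929 was detected on all arrays. These distances therefore rest in part on slide 1 signals not well above background, and AK103929 alone was not compared.

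In the RefSeq gene table for rice (assembly ASM3414082v1), 4 beta-expansin genes follow each other without another gene between them on chromosome 10, OsEXPB6, OsEXPB2, OsEXPB3 and OsEXPB4, and OsEXPB9 lies apart from them on the same chromosome. The table lists 15 genes under EXPB symbols and 29 under EXPA symbols. It matched 0 of the 5 RAP identifiers, so no symbol is given here to any member.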

How the data were processed

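The deposited intensity values came from Agilent scanner images read with Feature Extraction by the authors (11.5.1.1 in the file headers, 9.1 in the submitters' notes). A second deposited table holds log2 values of the same spots, for which no source used here gives the normalization. It served as an alternative, and 0 of its value columns were left unused. Control spots were left out, leaving 43734 spots. Processed signals were log2-transformed, averaged by probe and shifted so that every array had the same 75th percentile, equal to the mean of the 4.

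Differences were tested with limma 3.58.1 (R 4.3.3, eBayes, Benjamini-Hochberg adjustment) over all probes well above background on every array of at least 1 side, and the code was checked on simulated data. For the lone Lon-gin-labelled array the spread of the remaining arrays was used. According to the methods, the samples were 4 biological replicates with RNA prepared from each on its own. Normexp was run on the median signal with an offset of 50, because the mean signal was not used here. Figures were made with matplotlib 3.10.9.

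The members and gene lists were chosen with earlier results of these data known. The text names all members, matched expansins and wall enzymes, the chromosome 10 neighbours and the 2 nearest patterns per member. Planned promoter and protein comparisons and most markers of other root cells could not be matched and are not reported here.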

Additional observations from a re-analysis of the deposited data

How the results depend on the processing

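With 4 arrays of 1 condition, the number of arrays limits the precision. No paired analysis was possible because the 4 arrays form 1 group and share no replicate numbers. The fit with the slide as a block pairs arrays by slide only. With no scaling, with the percentile taken over detected probes or with outlier spots kept, the mean levels of the 4 genes could not change. The scaling used keeps the mean of the 4 arrays, and no member spot was marked as an outlier. Leaving out 1 of 4 arrays cannot move a mean by 1 SD. Under the deposited values and quantile normalization, with or without normexp, the means stayed within 1 SD. For Os10g0556100 that SD was 2.80, and its mean moved from 6.33 to 8.38 with normexp and quantile normalization. From AK103929 alone the mean of this gene was 9.82 against 6.33 over its 6 probes. By the rule that every probe must be well above background, 3 members counted as detected and not 4, and with normexp and quantile normalization 4 members and not 3 had a mean above 8.

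For the Lon-gin-labelled array, limma called 1 probe of the array, but 0 with the 75th percentile taken over detected probes, with all probes tested, with the deposited log2 values or with no scaling, 5 with normexp and quantile normalization, 64 with quantile normalization and 1932 with the slide as a block. Leaving out 1 Don-gin array gave 0 to 4623, the highest without replicate 3. Of the member probes 0 were called, 1 with the slide as a block, and 0 to 7 when 1 array was left out.

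Between slides, 1130 probes were called, but 3132 with all probes tested, 3140 with the deposited values, 9563 with no scaling, 128 with normexp and quantile normalization, 178 with quantile normalization, and 0 to 4623 when 1 array was left out. The called member probes went from 4 to 0 with quantile normalization, with or without normexp, and were 0 to 7 when 1 array was left out. The share of calls that were lower on slide 2 was largest with all probes tested, where 1540 were higher and 1592 lower against 1089 and 41. Genes with both slide 2 arrays above both slide 1 arrays numbered 5246 and those below numbered 5611, against 13085 and 1005 with the deposited values and 17238 and 103 with no scaling. They tilted the other way with quantile normalization (3649 and 7688) and with normexp and quantile normalization (3630 and 7760). The cause of these shifts was not tested.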
